A study of Rattus norvegicus with 7 samples.

Results

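Platelet-derived growth factor (PDGF) ligands and receptors were followed in lung RNA of rats with experimental pulmonary hypertension. The genes were Pdgfa, Pdgfb, Pdgfc and Pdgfd, which encode the ligands, and Pdgfra and Pdgfrb, which encode the receptors. Every probe set whose single gene symbol in the platform annotation was one of these 6 was taken, which gave 7 probe sets for 5 genes, out of 31042 probe sets and 14217 genes with a symbol of their own. No probe set carried Pdgfb as its single symbol, and Pdgfb was not analysed here. Pdgfrb had 3 probe sets and each of the other genes had 1.

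The HSU_Sor group held 4 arrays of lungs from Dahl salt-sensitive rats kept in hypoxia and given SU5416 and sorafenib, and the HSU group held 3 arrays of the same strain given hypoxia and SU5416 without sorafenib. All 7 rats were labelled with the same strain and shared an inspired oxygen of about 9.5% and SU5416, an inhibitor of the VEGF receptors, and lungs were taken at 3.5 weeks. Rats given SU5416 in hypoxia develop severe pulmonary hypertension and serve as a model of the disease, and sorafenib inhibits RAF kinases and several receptor tyrosine kinases, among them the PDGF receptor beta. RNA came from the whole right lung after the vessels were rinsed with saline, so every value mixes all lung cell types. Normoxic rats and rats in hypoxia alone, which the study design names, were not analysed here. The labels do not give the rats' age or the dose of either drug.

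PDGF ligands are secreted dimers that bring a pair of receptor chains together, and the receptor chains then phosphorylate each other and recruit signalling proteins. PDGF-A and PDGF-C act mainly on the alpha receptor, which in lung marks fibroblasts of the alveolar wall. PDGF-B and PDGF-D act on the beta receptor of pericytes and vascular smooth muscle cells, and PDGF-B made by endothelial cells is known for recruiting those cells to vessels. Signalling through the beta receptor has been studied in pulmonary hypertension because it drives growth and migration of vascular smooth muscle cells.

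Pdgfa and Pdgfra, a ligand and its main receptor, were both measured well above the filter on dim probe sets. The DNA at their start sites is shown for that reason. Both had their lowest value on HSU_Sor replicate 4, as did 2789 of all 15521 probe sets tested. The Pearson r of Pdgfa with Pdgfra over the 7 arrays was 0.63, and shared regulation was not tested. RefSeq, build GRCr8, gave a promoter for 5 of the 6 genes, from 250 bases before to 50 bases after the start. Capitals mark a GC box (GGGCGG, the letters that Sp1-family factors recognise) or a CCAAT box (CCAAT, the letters that the factor NF-Y recognises), each searched on both strands, and no GC box overlapped a CCAAT box.
Pdgfa, chr12:20759116-20759415, plus strand: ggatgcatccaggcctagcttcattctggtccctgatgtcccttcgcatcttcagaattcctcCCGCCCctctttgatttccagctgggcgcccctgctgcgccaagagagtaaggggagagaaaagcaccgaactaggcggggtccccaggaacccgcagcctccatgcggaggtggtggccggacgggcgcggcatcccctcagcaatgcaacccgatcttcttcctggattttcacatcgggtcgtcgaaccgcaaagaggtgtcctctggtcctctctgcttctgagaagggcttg
Pdgfra, chr14:33408467-33408766, minus strand: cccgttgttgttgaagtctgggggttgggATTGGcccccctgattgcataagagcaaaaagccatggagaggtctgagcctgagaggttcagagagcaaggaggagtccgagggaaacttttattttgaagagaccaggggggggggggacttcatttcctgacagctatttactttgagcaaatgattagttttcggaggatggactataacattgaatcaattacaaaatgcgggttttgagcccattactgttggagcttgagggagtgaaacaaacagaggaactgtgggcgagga
The Pdgfa window held 1 GC box and 0 CCAAT boxes, and the Pdgfra window held 0 GC boxes and 1 CCAAT box. A GC box stood in 33.1% and a CCAAT box in 37.5% of all 33469 promoters of the same length. These matches describe the letters alone.

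All arrays carried lung transcripts at a high level. The surfactant gene Sftpc lay between 15.39 and 15.54 and the club cell gene Scgb1a1 between 15.82 and 15.97 on the log2 scale. HSU 1b and 2b stood apart from the other 5 arrays at 6 probe sets, where both were higher by at least 3 log2 units. Of these, 5 carried the symbol of an MHC (RT1) gene and 1 had no single symbol. Whether these 2 rats shared the genetic background of the others was not tested. Every HSU title numbers its replicate with the letter b and no HSU_Sor title does, so a batch marked by that letter and sorafenib cannot be told apart. HSU_Sor 3 and 4 held less haemoglobin transcript, with Hbb at 12.11 and 11.59 against 14.23 to 14.75 on the other 5 arrays. Each array was treated as a separate rat, as the group sizes in the design text are numbers of rats. With 7 arrays the estimates are imprecise.

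Expression was measured on Affymetrix rat arrays, and every level below is on the log2 scale of the deposited values. Dim probe sets were left out of the test by a filter that kept those averaging more than 3.64, the midpoint of the ranked means. Of the 7 probe sets, 3 passed the filter, and 0 of these 3 passed the adjusted threshold of 0.05, where 0.0% of all 15521 tested did (limma). At an unadjusted p below 0.05 there were also 0 of 3, against 6.0% of all tested, 3.67% lower and 2.33% higher in HSU_Sor. Groups did not overlap for 1 of 3, Pdgfrb, against 5.26% of all tested, 3.25% with HSU_Sor lower and 2.01% with HSU_Sor higher.

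Among the receptors, Pdgfrb had the largest difference between the groups and also the largest spread within them. Its bright probe set (1370642_s_at) was at 10.22, 9.82, 10.11 and 8.65 in HSU_Sor lungs 1, 2, 3 and 4, and at 10.26, 11.16 and 10.53 in HSU lungs 1b, 2b and 3b, on the log2 scale. The groups did not overlap, but the highest HSU_Sor lung lay only 0.05 below the lowest HSU lung, and HSU_Sor 4 was far below the other 6. Pdgfrb averaged 9.70 ± 0.72 (SD, n = 4) in HSU_Sor lungs and 10.65 ± 0.46 (SD, n = 3) in HSU lungs, a log2 difference of -0.95 ± 0.42 (SE), or 1.93-fold lower. The 95% interval of the difference ran from -1.97 to 0.07, and it did not pass the threshold of 0.05 (limma, adjusted p = 0.861 over 15521 probe sets). In these bulk samples, fewer cells that carry a transcript and less of it per cell cannot be told apart.

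The size of the Pdgfrb difference rested in part on HSU_Sor 4. Without HSU_Sor replicate 4 it was -0.60 ± 0.25 (SE), and without HSU_Sor 3 and 4, the arrays low in Hbb, it was -0.63 ± 0.31 (SE). Without the arrays that stood apart at MHC genes, HSU 1b and 2b, it was -0.83 ± 0.68 (SE). Across all 17 alternative settings the difference stayed below 0, from -1.15 to -0.32. The adjusted p lay between 0.68 and 1.0 (limma) in the 16 settings that tested it, and with the mean of its probe sets, at -0.32, Pdgfrb was below the filter and not tested. Of all probe sets tested, 99, or 0.638%, were lower by more than Pdgfrb. Its within-group SD of 0.63 compared with a median of 0.15 over the probe sets tested, and 3.48% of them had a larger one.

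Pdgfra, the alpha receptor, was nearly the same on the HSU arrays and more scattered with sorafenib. It was at 11.56, 11.35, 11.83 and 11.06 in HSU_Sor lungs 1 to 4, and at 11.58, 11.62 and 11.59 in HSU lungs 1b, 2b and 3b. HSU_Sor 3 lay above every HSU lung and the other 3 HSU_Sor lungs below them. The log2 difference was -0.15 ± 0.17 (SE), with a 95% interval from -0.56 to 0.27 (limma, adjusted p = 0.903). Without HSU_Sor replicate 4 it was -0.02, and without HSU_Sor replicate 3 it was -0.27.

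Whether the group difference was unlike for the receptors was asked by taking log2 Pdgfrb minus log2 Pdgfra within each array. Pdgfrb differed by -0.95 and Pdgfra by -0.15, so this value mostly follows Pdgfrb and is not separate evidence. The within-array value was -1.34, -1.53, -1.72 and -2.41 in HSU_Sor lungs 1 to 4, and -1.32, -0.46 and -1.06 in HSU lungs 1b, 2b and 3b. Each HSU_Sor lung lay below each HSU lung, with HSU_Sor 1 and HSU 1b next to each other. The group means were -1.75 ± 0.47 (SD, n = 4) in HSU_Sor and -0.95 ± 0.44 (SD, n = 3) in HSU, a difference of -0.80. An exact permutation test over the 35 splits of the arrays gave a two-sided p of 0.0571. No lower value is possible with this design, which cannot reach 0.05. Without HSU_Sor replicate 4 the difference was -0.58, and without HSU replicate 2b it was -0.56. The level of one probe set against another has no meaning by itself, and only the shift between groups is read here.

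**Figure D1:**
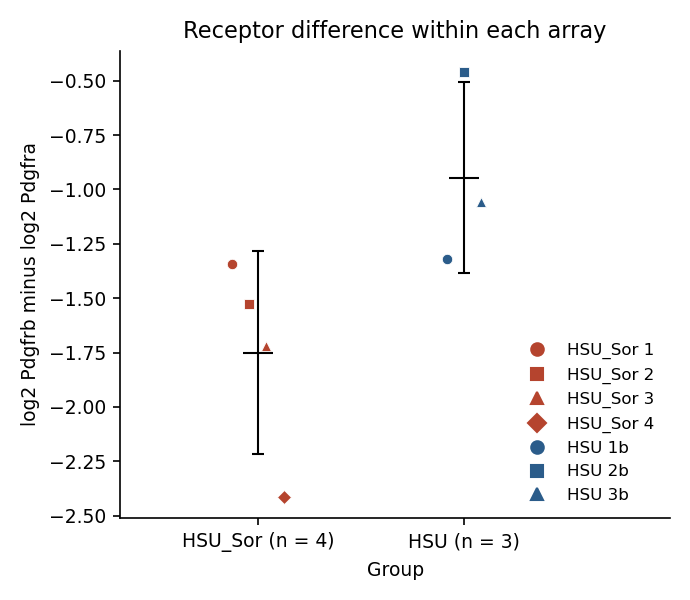
Log2 Pdgfrb minus log2 Pdgfra on each array, HSU_Sor on the left and HSU on the right, with group means ± SD (n = 4 and n = 3). The HSU_Sor lungs lie between -2.41 and -1.34 and the HSU lungs between -1.32 and -0.46.

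Of the ligands, Pdgfa alone was above the filter. It was at 11.52, 11.69, 11.62 and 11.28 in HSU_Sor lungs 1 to 4, and at 11.57, 11.81 and 11.57 in HSU lungs 1b, 2b and 3b. The groups overlapped, with HSU 2b highest and HSU_Sor 4 lowest. The log2 difference was -0.12 ± 0.12 (SE), with a 95% interval from -0.41 to 0.16 (limma, adjusted p = 0.889). Without HSU_Sor replicate 4 or without HSU replicate 2b it was -0.04.

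Pdgfc and Pdgfd, ligands that are released with a domain that must be cut off before they can bind, were near the floor of the arrays. Pdgfc lay between 2.19 and 2.25 in HSU_Sor lungs and between 2.21 and 2.25 in HSU lungs. Pdgfd lay between 2.69 and 2.74 in HSU_Sor lungs and between 2.70 and 2.75 in HSU lungs. Values this low and this flat give no measure of a difference, and 1 probe set per gene cannot show whether the transcripts were low or the probes insensitive. The same held within Pdgfrb, whose other probe sets were designed from 1 shared target sequence. Probe set 1379211_at lay between 2.14 and 2.19 in HSU_Sor lungs and between 2.17 and 2.20 in HSU lungs. Probe set 1391394_s_at lay between 1.63 and 1.66 in HSU_Sor lungs and between 1.65 and 1.67 in HSU lungs. Averaged over its 3 probe sets, Pdgfrb differed by -0.32, and the within-array receptor difference by -0.18. Both averages are drawn toward 0 by the flat probe sets.

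**Figure D2:**
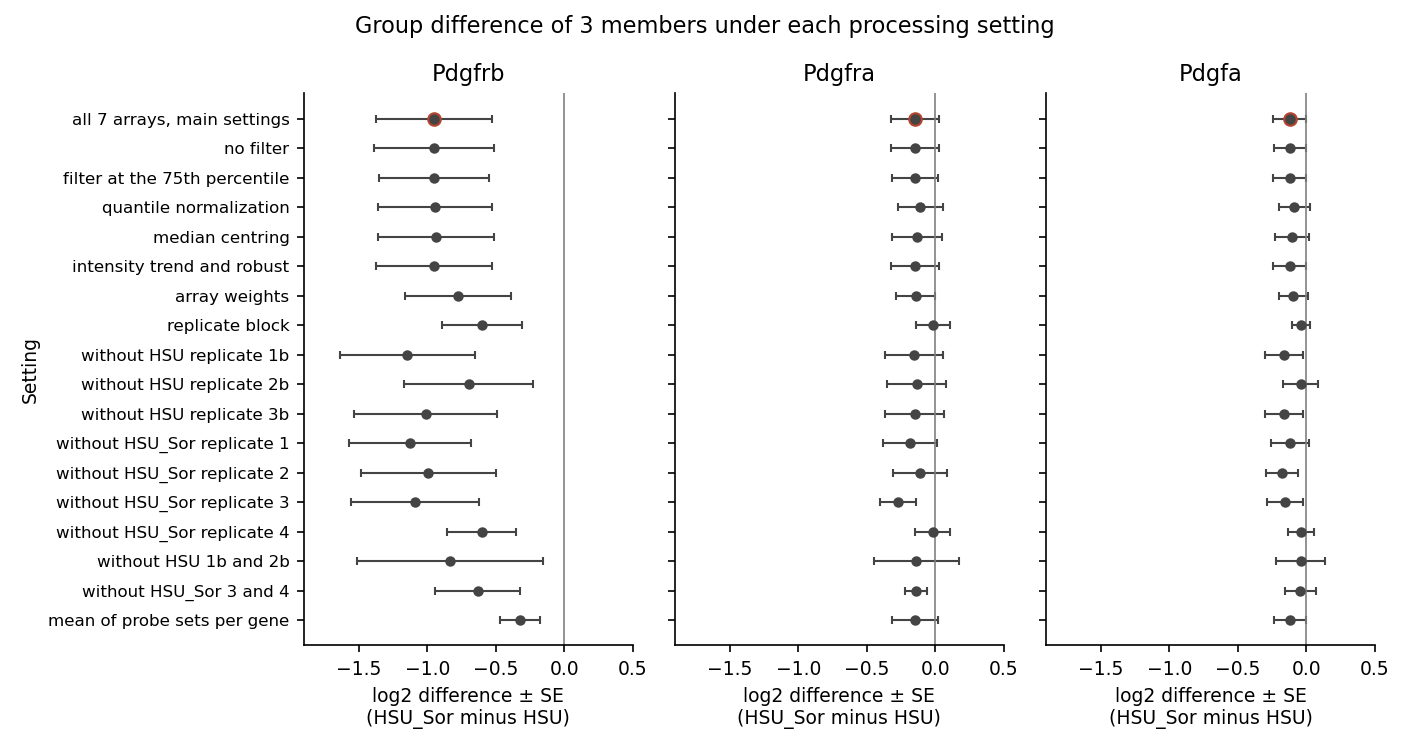
Log2 difference (HSU_Sor minus HSU, ± SE) of Pdgfrb, Pdgfra and Pdgfa with all 7 arrays (top row) and under 17 alternative settings. Pdgfrb runs from -1.15 to -0.32 and lies left of 0 in every row, and Pdgfra and Pdgfa stay close to 0.

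The genes whose pattern over the 7 arrays was most like that of Pdgfrb were ranked by Pearson r over the 7 arrays. They were Col15a1 (r = 0.990), a collagen of vascular basement membranes, Lama4 (r = 0.983), a laminin chain of vessel walls, Stc1 (r = 0.983), a secreted glycoprotein, Slc44a1 (r = 0.981), a choline transporter, and Dbn1 (r = 0.977), an actin-binding protein. The ranking covered 3611 genes above the filter that spanned at least 0.5 log2 units. Col15a1 was at 10.46, 10.10, 10.46 and 9.19 in HSU_Sor lungs 1 to 4, and at 10.55, 11.17 and 10.52 in HSU lungs 1b, 2b and 3b. As with Pdgfrb, HSU_Sor 4 was lowest and HSU 2b highest. Without HSU_Sor 4 the r of these 5 genes ranged from 0.921 to 0.965. HSU_Sor 4 held the lowest of the 7 values at 2789 of 15521 probe sets tested, against 1583 to 2431 for each other array.

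Pdgfa and Pdgfra had other nearest genes. For Pdgfa they were Enox2 (r = 0.983), Colec12 (r = 0.980), a scavenger receptor, Ppp1r14a (r = 0.976), an inhibitor of myosin phosphatase in smooth muscle, Kif3c (r = 0.964), a kinesin, and Septin4 (r = 0.963). For Pdgfra they were Pi4kb (r = 0.991), a lipid kinase, Plekhm2 (r = 0.991), Igf2r (r = 0.986), which carries lysosomal enzymes and binds IGF2, Ccdc6 (r = 0.973) and Zfta (r = 0.972). With 7 arrays and many genes, high values of r are common, and these lists are descriptions.

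**Figure D3:**
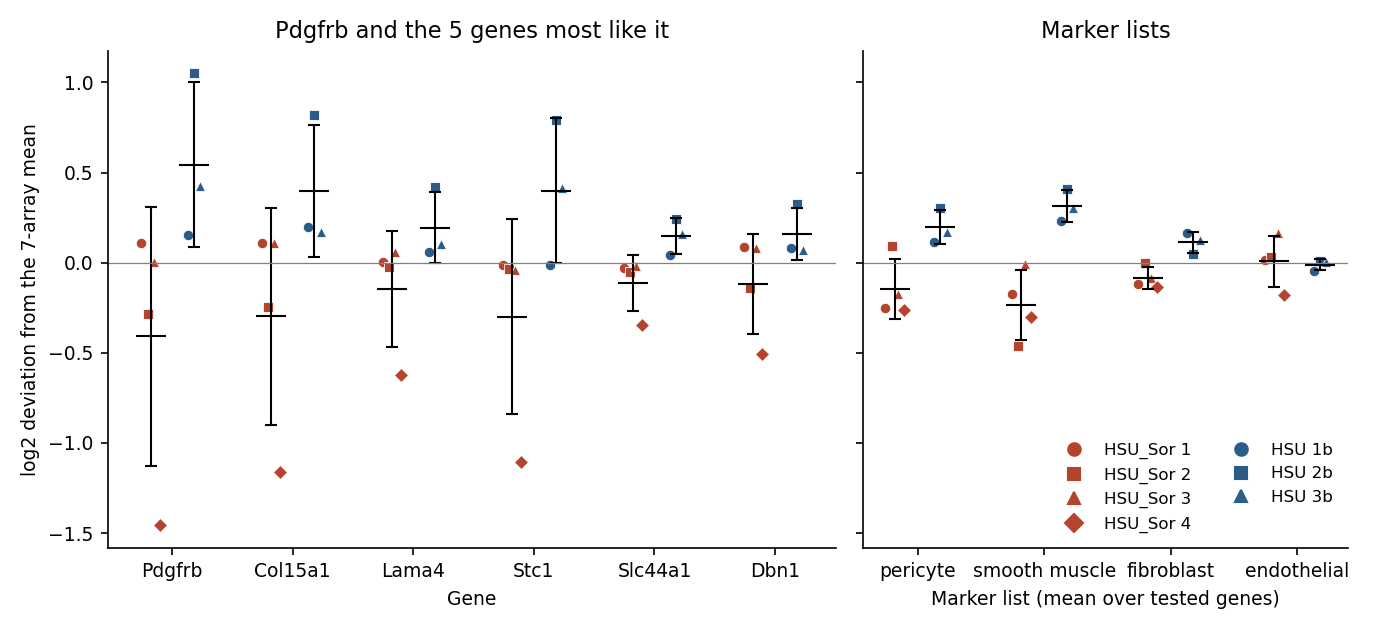
Log2 deviation from the 7-array mean on each array, HSU_Sor left of HSU, for Pdgfrb and the 5 genes most like it (left) and for marker lists averaged over their tested genes (right), with group means ± SD. HSU_Sor 4 is lowest for all 6 genes on the left. On the right, HSU_Sor 4 is lowest for the pericyte (-0.26), fibroblast (-0.13) and endothelial (-0.18) lists. The smooth muscle list is lowest on HSU_Sor 2, at -0.46.

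Genes that process or bind the ligands were counted next. Of 11 tested in this list of 14, 1 was lower and 1 higher at an unadjusted p below 0.05, against 3.67% and 2.33% of all tested. The adjusted threshold was passed by 0, and the median log2 difference was -0.02, beside -0.01 for all probe sets tested. Plat, tissue plasminogen activator, which cuts and activates human PDGF-C, was at 13.21, 13.01, 13.43 and 13.30 in HSU_Sor lungs 1 to 4, and at 13.77, 13.71 and 13.78 in HSU lungs. Each HSU_Sor lung lay below the HSU lungs, a log2 difference of -0.52 ± 0.10 (SE; limma, adjusted p = 0.543). Plau, urokinase, which activates human PDGF-D, averaged 9.16 ± 0.26 (SD, n = 4) in HSU_Sor lungs and 8.67 ± 0.06 (SD, n = 3) in HSU lungs, a log2 difference of 0.48 ± 0.14 (SE; limma, adjusted p = 0.72). Sparc, a matrix protein that binds PDGF, differed by 0.29, and by 0.19 without HSU replicate 3b. The proprotein convertase Pcsk5 differed by -0.45, and by -0.16 without HSU replicate 2b. The list median was 0.0199 without HSU_Sor replicate 2. The receptor-like gene Pdgfrl was below the filter.

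Signal transduction genes downstream of the receptors held no call. Of 23 tested genes of signal transduction, in a list of 28, 0 had an unadjusted p below 0.05, against 6.0% of all probe sets tested. The median difference was -0.02. The phosphatase Ptpn11, which binds the activated receptors, differed by -0.20 ± 0.09 (SE), the kinases Akt1 and Akt2 by -0.13 and -0.10, and the adaptor Shc1 by -0.11. These values moved with single arrays. Ptpn11 was -0.11 without HSU replicate 3b, Akt1 -0.0679 without HSU_Sor replicate 4, Akt2 -0.0647 without HSU_Sor replicate 2 and Shc1 -0.0268 without HSU replicate 1b. The list median was 0.0201 without HSU_Sor replicate 4. Of 18 early transcripts that PDGF induces in cultured fibroblasts, 15 were tested. At an unadjusted p below 0.05, 2 were lower, Odc1 and Ccl2, and 0 higher, against 3.67% and 2.33% of all tested. The median of the early transcripts was 0.05. That median had no stable sign, being -0.15 with HSU_Sor 2 left out, -0.05 with HSU 1b left out and 0.24 with HSU_Sor 4 left out. Ccl2, a chemokine first found as a PDGF-induced transcript of mouse fibroblasts, was at 2.78, 4.05, 2.35 and 4.07 in HSU_Sor lungs 1 to 4, and at 4.06, 6.81 and 4.82 in HSU lungs 1b, 2b and 3b. HSU 2b was the highest and the groups overlapped by a small margin. Ccl2 averaged 3.31 in HSU_Sor lungs, below the filter of 3.64, and 5.23 in HSU lungs, so it passed the filter only through the HSU lungs and no difference is read from it. Odc1, an enzyme of polyamine synthesis, differed by -0.30, Egr2 by 0.40, or 0.24 without HSU replicate 2b, and Myc by 0.14.

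No receptor tyrosine kinase related to the PDGF receptors passed the adjusted threshold, which 0 of all 15521 probe sets tested passed. Of 5 tested in a list of 6, 0 had an unadjusted p below 0.05, against 6.0% of all probe sets tested. So few genes cannot tell 0 from that share. The median difference was 0.02. The receptor for CSF1, Csf1r, differed by 0.17 ± 0.12 (SE), the VEGF receptors Flt1 and Kdr by -0.26 ± 0.20 and 0.12 ± 0.19, and Kit by -0.16 ± 0.34. The sign turned for Csf1r and Kdr without HSU 1b and 2b, and for Kit without HSU 2b. Without 1 array, Csf1r was 0.045 (HSU 2b left out), Kdr 0.00523 (HSU 1b left out) and Flt1 -0.0911 (HSU_Sor 4 left out). The list median was -0.0546 without HSU_Sor replicate 2.

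**Figure D4:**
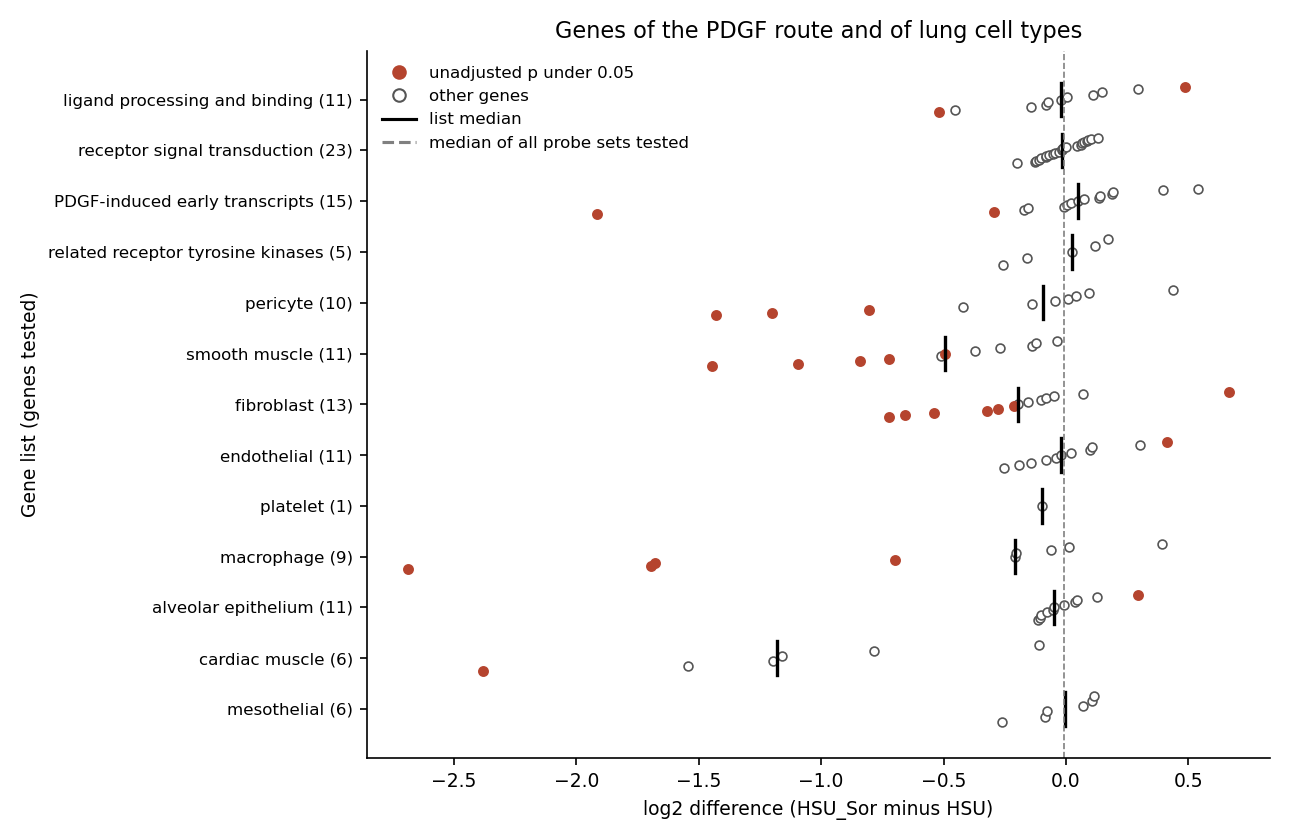
Log2 difference (HSU_Sor minus HSU) of each tested gene in 13 lists of the PDGF route and of lung cell types, with the list median as a black bar and the median of all probe sets tested, -0.01, as a dashed line. Filled points have an unadjusted p below 0.05, and 0 genes passed the adjusted threshold. The smooth muscle genes lie left of 0, and the signal transduction genes cluster around it.

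Pericytes and smooth muscle cells carry the beta receptor, and their marker genes were set beside it. Of 10 tested pericyte genes in a list of 12, 3 were lower and 0 higher at an unadjusted p below 0.05. Of all probe sets tested, 3.67% were lower and 2.33% higher at that p. The median difference was -0.09. Below 0 were 6 of 10 genes, which is near the share over all probe sets, 8384 of 15521. Leaving out HSU 1b gave a median of -0.23, and leaving out HSU_Sor 3 and 4 gave -0.0194. The 3 lower genes were Rgs5 (-1.43 ± 0.39, SE), a regulator of G protein signalling, Cspg4 (-1.20 ± 0.32), the NG2 proteoglycan, and Higd1b (-0.80 ± 0.17), with an adjusted p of 0.683, 0.676 and 0.57 (limma). Ndufa4l2 differed by -0.42, and by 0.00434 without HSU_Sor 3 and 4. Mcam differed by -0.14 and Kcnj8 by -0.04. The 4 genes above 0 were Cox4i2 (0.44 ± 0.34, SE), Abcc9 (0.09), Angpt1 (0.04) and Anpep (0.01). Rgs5 was at 6.92, 8.36, 6.82 and 7.86 in HSU_Sor lungs 1 to 4, and at 9.03, 8.79 and 8.93 in HSU lungs 1b, 2b and 3b. Rgs5 was lowest on HSU_Sor 3, while Pdgfrb was lowest on HSU_Sor 4. Averaged over the list, the deviation from the 7-array mean was lowest on HSU_Sor 4, at -0.26, and highest on HSU 2b, at 0.30. Pdgfrb had the same lowest and highest arrays. The list was nearly as low on HSU_Sor 1, at -0.25. The log2 of the summed level of the tested pericyte genes ran from 13.59 to 14.10 in HSU_Sor and from 14.02 to 14.08 in HSU. Notch3 and Lamc3 were below the filter.

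Smooth muscle genes had a median of -0.49 over 11 tested of 12, with all 11 below 0 and 5 of them at an unadjusted p below 0.05. Over all 15521 probe sets tested, 8384 were below 0 and 3.67% were lower at that p. The direction of the smooth muscle genes was already known from earlier results of these data. With the mean of probe sets per gene the median was -0.31. Des (-1.10 ± 0.12, SE), Actg2 (-1.45 ± 0.16), Cald1 (-0.49 ± 0.10) and Tagln (-0.72 ± 0.15) had the smallest p, and each had an adjusted p between 0.15 and 0.57 (limma). Other markers of the list differed less. Acta2 (-0.04 ± 0.14, SE), Lmod1 (-0.12), Mylk (-0.14) and Myh11 (-0.27) had groups that overlapped. The summed level of the list ran from 15.36 to 15.77 in HSU_Sor and from 16.02 to 16.19 in HSU, so the groups did not overlap. Averaged over the list, the deviation from the 7-array mean was -0.18, -0.46, -0.01 and -0.30 in HSU_Sor lungs 1 to 4, and 0.23, 0.41 and 0.30 in HSU lungs 1b, 2b and 3b. HSU 2b was highest here as for Pdgfrb, while the lowest lung was HSU_Sor 2 rather than HSU_Sor 4. The part of mural cell content in the Pdgfrb difference was not tested.

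Fibroblast genes had a median of -0.20 over 13 tested of 16. At an unadjusted p below 0.05, 6 were lower and 1 higher, against 3.67% and 2.33% of all probe sets tested. Col1a2 differed by -0.32 ± 0.05 (SE), Col1a1 by -0.54 ± 0.15 and lumican (Lum) by -0.72 ± 0.19, and osteoglycin (Ogn) by 0.66 ± 0.15, with an adjusted p between 0.232 and 0.683 (limma). Without HSU 1b and 2b, Col1a1 differed by -0.29 and Ogn by 0.43. The summed level ran from 16.68 to 16.85 in HSU_Sor and from 16.84 to 16.91 in HSU. Pdgfra, the fibroblast receptor, differed by -0.15.

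Platelets store PDGF protein, and of 10 platelet genes 1 was tested and 6 were below the filter. Platelet factor 4 (Pf4) was at 9.78, 11.07, 8.74 and 8.10 in HSU_Sor lungs 1 to 4, and at 9.44, 9.43 and 9.69 in HSU lungs. The HSU_Sor lungs lay on both sides of the HSU lungs, and the log2 difference of -0.10 ± 0.68 (SE) had no stable sign, being 0.34 without HSU_Sor replicate 4 and 0.91 without HSU_Sor 3 and 4. Cardiac muscle genes had a median of -1.18 over 6 tested of 12, which came to -2.09 with HSU 3b left out, -0.70 with HSU 1b left out and 0.24 with HSU 1b and 2b both left out. Only myoglobin (Mb) had an unadjusted p below 0.05, and it passed the filter only through HSU 1b and 2b, at 6.88 and 5.59 against 2.57 to 2.64 on the other 5 arrays, so nothing is read from it. The summed level of the cardiac genes ran from 9.19 to 10.84 in HSU_Sor and was 12.38, 12.11 and 9.52 in HSU lungs 1b, 2b and 3b, so HSU 3b lay among the HSU_Sor lungs. For Pdgfrb, the level of HSU 3b (10.53) fell between those of HSU 1b (10.26) and HSU 2b (11.16). Macrophage genes had a median of -0.21 over 9 tested of 12. At an unadjusted p below 0.05, 4 were lower and 0 higher, against 3.67% and 2.33% of all probe sets tested. Leaving out HSU 3b gave a median of -0.0755, leaving out HSU 2b gave -0.37, and leaving out HSU 1b and 2b together gave -0.57. Their summed level ran from 15.20 to 15.35 in HSU_Sor and from 15.32 to 15.59 in HSU. The part of these cell types in the Pdgfrb difference was not tested.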

How the data were processed

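The values analysed are the log2 expression values that the authors deposited, 1 per probe set and array. RMA and GCRMA stand in the submitters' processing notes, and the sources used here do not say which of them gave the values. The 57 control probe sets were left out. Symbols came from the platform annotation and were checked by gene identifier against RefSeq (20758 of 20826 matched, 0 differed). HSU_Sor minus HSU was fitted with limma (version 3.58.1, R version 4.3.3; lmFit and eBayes, no covariate, two-sided) on the 15521 probe sets with a mean above 3.64, the median of all 31042, with Benjamini-Hochberg adjustment at 0.05. Probe sets below the filter, where differences are compressed at the floor, took values from a fit over all probe sets. List genes were represented by their probe set with the highest mean. Named were all member probe sets, up to 4 genes per list with the smallest unadjusted p, and the 5 genes with the highest Pearson r. Further pericyte and smooth muscle genes were named to show those that differed little or went the other way. Members and lists were chosen with earlier results of these data known. SAM, named in the study design, was not run. limma was run on simulated data with independent noise and no array-wide shifts, which checked only the mean of the estimated differences. That run does not show how often limma calls correctly in data like these. Alternatives were other filters, normalizations, variance models and probe set averaging, array weights, a replicate block and left-out arrays. The exact permutation test used SciPy version 1.17.1.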

Additional observations from a re-analysis of the deposited data

Results flagged for a closer look

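Among 37 values examined in the 4 HSU_Sor arrays, which included all 7 member probe sets, 3 had 1 array far from the other 3, where chance gives about 1 in 20. None of the 3 was a PDGF ligand or receptor. For Actg2 the gap of HSU_Sor 2, at 11.52, to the next array was 0.911 of the whole range. For Akt1 the gap of HSU_Sor 4, at 12.18, was 0.864 of the range. For Ptpn11 the gap of HSU_Sor 1, at 10.96, was 0.847 of the range. The low Pdgfrb value of HSU_Sor 4 lay at 0.747 of the range, which was not far enough to be listed.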

How the results depend on the processing

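Pdgfrb, Pdgfra and Pdgfa kept a difference below 0 under all 17 alternatives, and none passed the adjusted threshold where it was tested, which left out Pdgfrb with the mean of probe sets per gene. Leaving out 1 array at a time, Pdgfrb ran from -1.15 to -0.60, Pdgfra from -0.27 to -0.02, Pdgfa from -0.18 to -0.04 and the within-array receptor difference from -0.99 to -0.56. The unadjusted p of Pdgfrb was below 0.05 under 2 alternatives, 0.0469 with the filter at the 75th percentile and 0.0498 without HSU_Sor replicate 1. With the replicate block, to which HSU_Sor 4 adds nothing because its number has no partner, Pdgfrb differed by -0.60, and the block changed no call at the adjusted threshold. Deviations of same-numbered arrays correlated at -0.06, 0.18 and 0.14, and those of arrays with unlike numbers at -0.17 to 0.24. So few values cannot show whether the numbers pair the arrays. The count of probe sets past the adjusted threshold, 0 with all arrays, was 6 with the filter at the 75th percentile, 0 to 6 without 1 array at a time (6 without HSU replicate 3b) and 10 without HSU 1b and 2b. The number of probe sets with an unadjusted p below 0.05 was 931, against 562 with the filter at the 75th percentile and 542 with the mean of probe sets per gene, where fewer were tested. Genes of the context lists past the adjusted threshold numbered 0, and 2 (Des and Actg2) with the filter at the 75th percentile. Signs turned without HSU 1b and 2b for Csf1r (-0.0615), Kdr (-0.0188) and Kit (0.24), and for Kit also without HSU replicate 2b (0.21); leaving out 1 array at a time, Kit ran from -0.36 to 0.21. Without HSU_Sor 3 and 4 they turned for Ndufa4l2 (0.00434) and Pf4 (0.91). Pf4 also turned with array weights (0.0531), with the replicate block (0.34), without HSU_Sor replicate 3 (0.13) and without HSU_Sor replicate 4 (0.34), and ran from -0.65 to 0.34 over the arrays left out singly. The cause was not tested. With HSU 3b as the only HSU array, its spread is assumed to equal that of the other group.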

Other observations

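Lists of other lung cell types had medians close to the -0.01 of all probe sets tested. Endothelial genes, from cells that secrete PDGF-B, had a median log2 difference of -0.02 over 11 tested of 12, with 0 lower and 1 higher at an unadjusted p below 0.05. Over all probe sets tested, 3.67% were lower and 2.33% higher at that p. Genes of the alveolar epithelium, a source of PDGF-A in lung development, had a median of -0.05 over 11 tested of 12, with 0 lower and 1 higher. Mesothelial genes had a median below 0.01 in size over 6 tested of 8, with 0 genes at an unadjusted p below 0.05. That median had no stable sign and ran from -0.25 to 0.14 with 1 array left out at a time. The endothelial median ran from -0.07 to 0.05 and the alveolar one from -0.08 to -0.01. In all 3 lists 0 genes passed the adjusted threshold (limma).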
